A study of Mus musculus with 3 samples.

Results

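The angiopoietins, the Tie receptors and apelin with its receptor were followed here in the noncardiomyocytes of the mouse heart under pressure overload. The 8 genes *Angpt1*, *Angpt2*, *Angptl2*, *Angptl4*, *Tek*, *Tie1*, *Apln* and *Aplnr* were chosen by name, out of the 27998 genes in the tables, and all 8 were found. Nonmyocytes from the ventricles of wild-type C57BL/6JJcl mice were profiled by droplet-based single-cell RNA sequencing (scRNA-seq) in 3 phases. These were the healthy heart (0 weeks, the control), adaptive hypertrophy (2 weeks after transverse aortic constriction, TAC) and heart failure (12 weeks after TAC). TAC narrows the aorta and raises the pressure against which the left ventricle works. Per the study's methods the mice were male and were operated on at 8 weeks of age, the hearts were digested with collagenase, and cardiomyocytes (CMs) were removed on a Percoll gradient. Each phase was 1 library, and the number of hearts in a library is not given in the sources used here. Phase and library therefore cannot be told apart, there is no replicate error, and phases could not be tested against each other. The intervals given are 95% intervals that cover counting error only.

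Angiopoietins are secreted ligands of Tie2, the receptor tyrosine kinase that *Tek* encodes and that holds endothelial cells (ECs) in a quiescent, tightly joined state. Angiopoietin 1, made mainly by cells around vessels, activates Tie2, whereas angiopoietin 2, released by ECs themselves, can block it, and Tie1 is a related receptor that modulates Tie2 signaling. The angiopoietin-like proteins share the fold but do not bind Tie2: ANGPTL4 inhibits lipoprotein lipase, and ANGPTL2 is an inflammatory secreted factor. Apelin is a small peptide that acts on a G protein–coupled receptor, encoded by *Aplnr*. In sprouting vessels the peptide is known from tip cells and the receptor from the cells behind them.

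The 8 genes are protein coding and are given in GRCm38 coordinates. *Angpt1* lies on the minus strand at chr15:42424723-42676977 and *Angpt2* on the minus strand at chr8:18690263-18741562, and each has another gene on the opposite strand of its locus (*Gm17473* and *Mcph1*). *Angptl2* is at chr2:33216069-33247717 on the plus strand, with *Ralgps1* opposite, and *Angptl4* at chr17:33773750-33781830 on the minus strand. *Tek* (chr4:94739289-94874976, plus) and *Tie1* (chr4:118471191-118490061, minus) share a chromosome. *Apln* is at chrX:48025146-48034853 on the minus strand and *Aplnr*, whose annotation is 1 exon block, at chr2:85136225-85139923 on the plus strand. Promoter sequence from RefSeq was at hand for 4 of the 8 genes. The 250 bases before the start of *Tek* and of *Apln* are shown because these genes carry the main differences below. Capitals mark GGAA, the core of the motif of ETS factors, which act at many endothelial promoters, on either strand (written TTCC when on the opposite strand).
Tek promoter, chr4:94739039-94739288, plus strand, 5′ to 3′: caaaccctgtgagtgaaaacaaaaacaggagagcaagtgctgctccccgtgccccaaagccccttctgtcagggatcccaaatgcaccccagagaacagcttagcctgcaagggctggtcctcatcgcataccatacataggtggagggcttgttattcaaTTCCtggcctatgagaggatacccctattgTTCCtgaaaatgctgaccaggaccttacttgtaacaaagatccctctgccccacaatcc
Apln promoter, chrX:48034854-48035103, minus strand, 5′ to 3′: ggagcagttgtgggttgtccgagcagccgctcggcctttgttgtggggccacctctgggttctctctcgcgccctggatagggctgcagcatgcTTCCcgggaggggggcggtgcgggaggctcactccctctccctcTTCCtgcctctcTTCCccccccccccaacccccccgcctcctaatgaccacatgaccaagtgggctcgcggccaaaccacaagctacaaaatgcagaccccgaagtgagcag
The window of *Tek* had 2 matches to GGAA and that of *Apln* had 3. Such a match is common, since 93.45% of 32851 RefSeq promoter windows of 250 bases held at least 1. CGTG, the core of the motif of hypoxia-inducible factors, was found in the window of *Tek* (1 match, either strand) and not in that of *Apln*, and 55.49% of the windows held it. The motifs do not overlap. A match is a description of the letters and not evidence of binding.

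A minimum of 200 genes per cell left 3892, 2231 and 792 cells at 0, 2 and 12 weeks, with a median of 2589, 1495 and 1434 unique molecular identifiers (UMIs) per cell. Libraries shared 5 (0 and 2 weeks), 1 (0 and 12 weeks) and 3 (2 and 12 weeks) cell barcodes. A cell was assigned to ECs, fibroblasts (FBs), mural cells or blood cells by the largest sum of UMIs over marker genes, and none of the 8 genes was a marker. This gave 3094 ECs (1085, 1719 and 290 by phase), 1583 FBs (1279, 107 and 197), 493 mural cells (384, 70 and 39) and 1298 blood cells (949, 188 and 161), and 447 cells stayed ungated. A level is the UMIs of a gene summed over the cells of a class per 1000000 UMIs of those cells (CPM). It is compared between classes or phases for 1 gene, and not between genes. The EC markers summed to 5375 CPM in healthy ECs, against 131 CPM in FBs and 88.9 CPM in blood cells. In mural cells they reached 1396 CPM, and the part of this in the endothelial genes read in mural cells was not tested.

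Most UMIs of 6 of the 8 genes lay in ECs and most of the other 2 in FBs, over the 3 libraries together. These shares depend on how many cells of each class were caught, and the levels below do not. Of all gated UMIs, 94.35% of *Tie1*, 94.75% of *Apln* and 97.4% of *Aplnr* came from ECs. ECs also held 78.1% of *Angptl4*, 74.2% of *Tek* and 66.5% of *Angpt2*. FBs held 82.1% of *Angpt1* (87 of 106 UMIs) and 83.7% of *Angptl2* (712 of 851 UMIs). The genes that departed most from a single source were *Tek*, with 17.8% of its UMIs in FBs, and *Angpt2*, with 22.5% in mural cells.

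**Figure D1:**
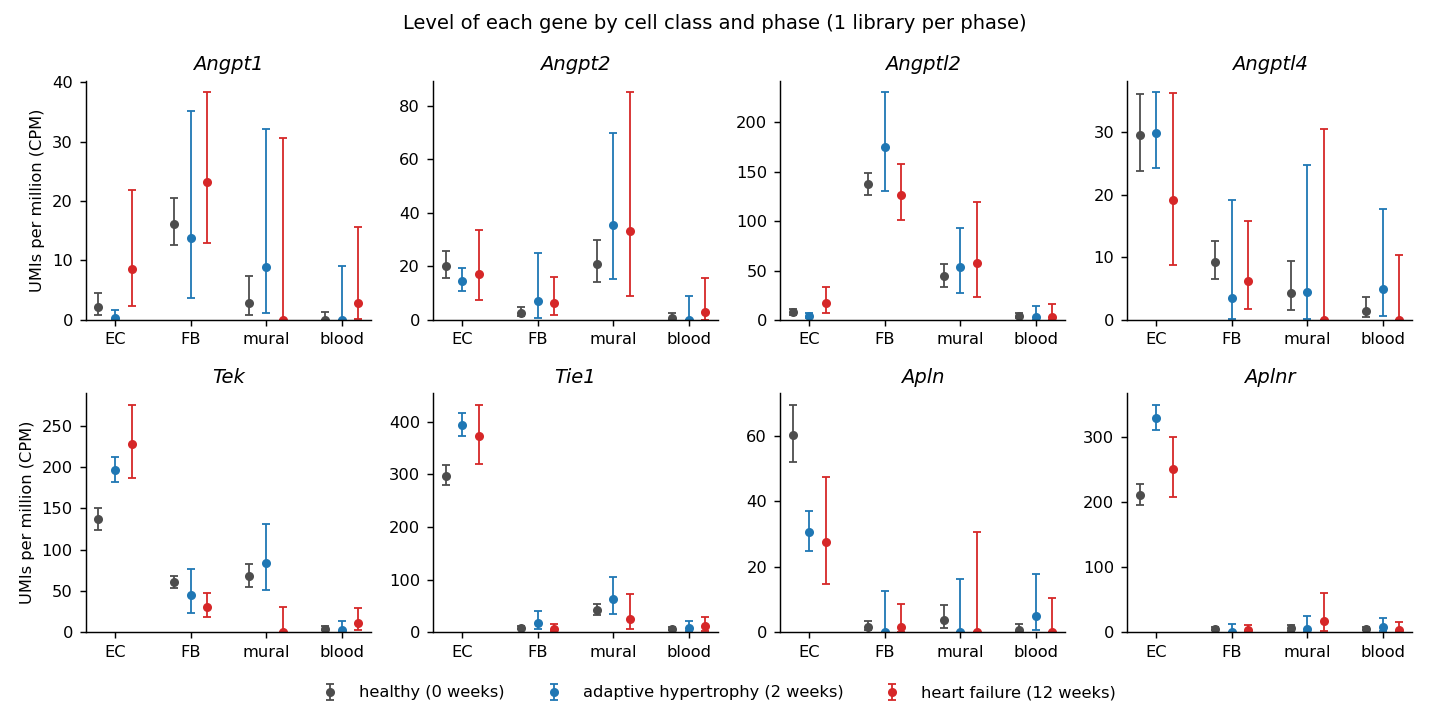
Level of each of the 8 genes (CPM) in ECs, FBs, mural cells and blood cells of the healthy, 2-week and 12-week libraries. Points are summed levels of 1 library and bars are exact Poisson 95% intervals. *Angpt1* and *Angptl2* were highest in FBs and *Tie1*, *Apln* and *Aplnr* in ECs, whereas *Tek* was also read in FBs and mural cells and *Angpt2* in mural cells.

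*Angpt1*, the activating ligand of Tie2, was a low FB transcript. Its level in FBs was 16.1 CPM at 0 weeks (68 UMIs), 13.8 CPM at 2 weeks (4 UMIs) and 23.2 CPM at 12 weeks (15 UMIs, of which 6 lay in 1 cell). The healthy FB level was 5.60 times the mural level (95% interval 2.09 to 21.1), and blood cells had 0 UMIs. Between phases the level was not resolved, with ratios to the healthy library of 0.852 (0.226 to 2.29) and 1.44 (0.764 to 2.54). Taken as a mean over cells instead of a sum, the ratios became 1.93 at 2 weeks and 0.706 at 12 weeks, so that neither direction held.

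*Angpt2*, the ligand that can antagonize Tie2, was read at like levels in ECs and in mural cells. In ECs it stood at 20.1 CPM (15.5 to 25.7), 14.7 CPM (10.9 to 19.4) and 17.1 CPM (7.36 to 33.6) at 0, 2 and 12 weeks. In mural cells it was 20.9 CPM (14.0 to 30.0), 35.5 CPM (15.3 to 69.9) and 33.2 CPM (9.04 to 85.0). The mural level was thus 1.04 times the EC level in the healthy library (0.645 to 1.63), 2.42 times at 2 weeks (0.989 to 5.15) and 1.95 times at 12 weeks (0.429 to 7.27), and no interval left out equality. The count of *Angpt2* beside that of *Tie1* differed between the classes. Per *Tie1* UMI there were 0.0677 *Angpt2* UMIs in healthy ECs and 0.5 in mural cells (0.309 to 0.794). Healthy mural cells with mainly smooth muscle markers (347 SMC-like cells) had an *Angpt2* level of 22.2 CPM, and the 35 pericyte-like cells had 0 UMIs, for which 3 counts would be 40.6 CPM, so that no difference between them was detectable.

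*Angptl2* was mainly an FB transcript in all 3 phases. Its FB level was 137 CPM (126 to 149) at 0 weeks, 175 CPM (131 to 231) at 2 weeks and 127 CPM (101 to 158) at 12 weeks, so the phases overlapped. When each cell was thinned to 1000 UMIs, 12.04% of healthy FBs (154 of 1279) had an *Angptl2* UMI, against 0.105% of blood cells, and unthinned it was 31.9% of FBs (median depth 2955 UMIs in FBs and 2615 UMIs in blood cells). Pericyte-like cells of the healthy library reached 190 CPM (104 to 318, from 14 UMIs in 35 cells), 5.28 times the level of SMC-like cells (2.68 to 9.75). The gene was thus read in both FBs and pericyte-like cells.

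*Angptl4*, whose product restrains lipoprotein lipase at the capillary wall, was mainly endothelial. Healthy ECs had 29.6 CPM (23.9 to 36.2), 3.20 times the FB level (2.18 to 4.77). At 2 weeks the EC level was 1.01 times the healthy one (0.756 to 1.36), and at 12 weeks it was 19.2 CPM from 9 UMIs, at a ratio of 0.648 (0.288 to 1.28).

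*Tek* and *Tie1*, the 2 Tie receptor genes, were both higher in ECs of the TAC libraries. The EC level of *Tek* was 137 CPM (124 to 150) in the healthy library, 197 CPM (182 to 212) at 2 weeks and 228 CPM (187 to 276) at 12 weeks. Relative to 0 weeks this was 1.44 times (1.27 to 1.63) and then 1.67 times (1.34 to 2.07). *Tie1* was higher after TAC as well, with its highest level at 2 weeks. It stood at 298 CPM (279 to 317), 394 CPM (373 to 416) and 373 CPM (320 to 432), or 1.32 times (1.22 to 1.44) and 1.25 times (1.06 to 1.47). The sum of the 7 EC markers was 1.20 times higher at 2 weeks and 1.25 times higher at 12 weeks in the same cells, which is close to the ratios of *Tie1*. Between 2 and 12 weeks the intervals of both receptor genes held 1, with ratios of 1.16 (0.936 to 1.42) for *Tek* and 0.947 (0.804 to 1.11) for *Tie1*. Neither reached 2-fold in ECs.

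*Tek* was read in FBs as well as in ECs. Healthy FBs had 60.3 CPM of *Tek* (53.1 to 68.1, from 254 UMIs), 13.8 times the level in blood cells. *Tie1* stood at 8.78 CPM (37 UMIs) and *Aplnr* at 4.74 CPM (20 UMIs) in the same FBs. After thinning to 1000 UMIs, 7.43% of FBs (95 of 1279) had a *Tek* UMI, against 13.0% of ECs and 0.316% of blood cells, with unthinned shares of 16.5% and 29.5% in FBs and ECs. The ratio of the 2 receptor genes differed between classes. There were 6.87 *Tek* UMIs per *Tie1* UMI in healthy FBs (4.85 to 9.97), 0.459 in ECs (0.409 to 0.515), 1.62 in mural cells (1.16 to 2.29) and 0.667 in blood cells (0.293 to 1.46). The interval in blood cells thus overlapped that of all ECs together, and those in FBs and mural cells did not. Within healthy ECs the counts of *Tek* and *Tie1* differed by kind of cell. They were 228 and 674 in ECs without a leading set of arterial, venous, endocardial or lymphatic markers. In ECs led by arterial, venous, endocardial and lymphatic markers they were 119 and 160, 52 and 66, 27 and 23, and 8 and 23. Among healthy FBs, those with a *Tek* UMI had *Tie1* at 28.1 CPM and those without at 4.37 CPM (ratio 6.43, 3.19 to 13.3), and their EC marker sum was 3.56 times as high.

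The FBs were also divided by whether they held RNA of EC markers. Of the healthy FBs, 1077 had no UMI of any EC marker and 202 had at least 1. In the former, *Tek* was 56.1 CPM (48.4 to 64.7) and 15.3% of cells had a UMI, whereas *Tie1* was 2.07 CPM and *Aplnr* 1.48 CPM. In the latter, *Tek* was 77.2 CPM, *Tie1* 36.2 CPM and *Aplnr* 18.1 CPM. Each of the 3 genes was lower in the FBs with no EC marker UMI, which still held 7 *Tie1* and 5 *Aplnr* UMIs. The part of endothelial RNA in the *Tek* level of FBs was not tested.

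**Figure D2:**
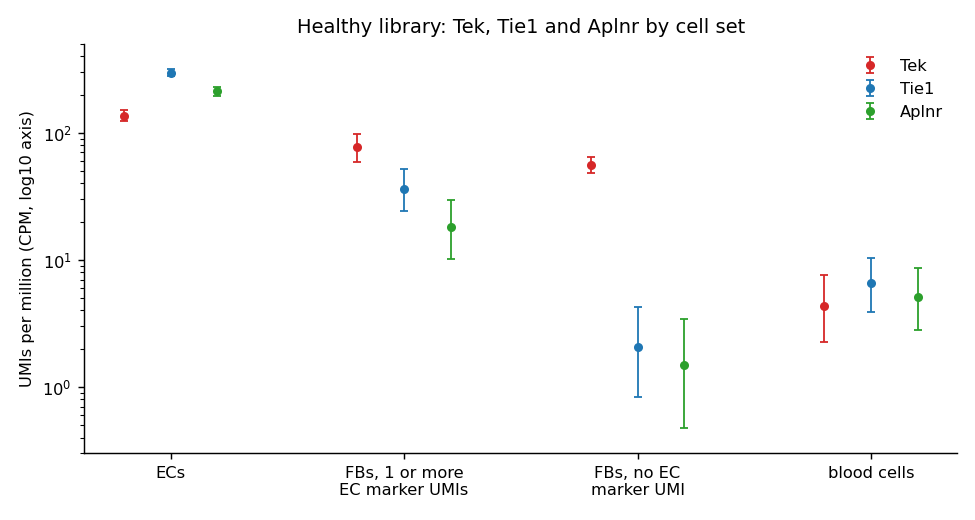
Levels (CPM) of *Tek*, *Tie1* and *Aplnr* in the healthy library, in ECs, in FBs with at least 1 EC marker UMI, in FBs with none and in blood cells. Points are summed levels and bars are exact Poisson 95% intervals. In FBs with no EC marker UMI, *Tek* was 56.1 CPM and *Tie1* was 2.07 CPM.

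Over all FBs the level of *Tek* was lower at 12 weeks, opposite to ECs. It was 44.7 CPM at 2 weeks (23.8 to 76.4, 13 UMIs), which is 0.742 times the healthy level (0.390 to 1.29), and 31.0 CPM at 12 weeks (18.9 to 47.8, 20 UMIs), which is 0.514 times (0.309 to 0.810). In FBs with no EC marker UMI the ratios were 0.566 (0.225 to 1.19) and 0.720 (0.395 to 1.22), and both intervals held 1. In FBs that had such a UMI the ratio was 1.10 at 2 weeks (0.390 to 2.53) and 0.236 at 12 weeks (0.0741 to 0.580). The size of the difference thus depended on which FBs were counted. In mural cells *Tek* stood at 67.7 CPM (54.7 to 82.9) and 84.3 CPM (50.8 to 132) at 0 and 2 weeks. At 12 weeks the 39 mural cells had 0 *Tek* UMIs, for which 3 counts would be 24.9 CPM, and the ratio to the healthy level had an upper bound of 0.461. The EC markers in those mural cells were also lower, at 0.642 times the healthy sum.

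The ligand *Apln* and its receptor *Aplnr* moved in opposite directions in ECs after TAC. *Apln* was 60.4 CPM (52.2 to 69.6, 192 UMIs) at 0 weeks, 30.5 CPM (24.9 to 37.1, 102 UMIs) at 2 weeks, and ECs of the 12-week library had 27.7 CPM (14.8 to 47.4, 13 UMIs). The ratios to the healthy library were 0.506 (0.394 to 0.646) and 0.458 (0.240 to 0.803), or −0.98 and −1.13 on the log2 scale. *Aplnr* was 212 CPM (196 to 228), 330.3 CPM (311 to 350.4) and 251 CPM (208 to 301). It was 1.56 times the healthy level at 2 weeks (1.42 to 1.72) and 1.19 times at 12 weeks (0.968 to 1.45), and it was lower at 12 weeks than at 2 weeks (ratio 0.761, 0.624 to 0.921). Among the ECs without a leading set of arterial, venous, endocardial or lymphatic markers, *Aplnr* was 1.43 times the healthy level at 12 weeks (1.15 to 1.77) and 0.949 times the 2-week level (0.766 to 1.17), so that the later decline was not seen there. The 12-week ratio of *Apln* rests on 13 UMIs and became 0.285 when the deepest 5% of cells of each class were removed, and 0.548, no longer 2-fold, among ECs without arterial, venous, endocardial or lymphatic markers in the lead. Cells of the other classes held little of either gene. Blood cells had *Apln* between 0 and 4.90 CPM and *Aplnr* between 2.82 and 7.35 CPM, and in FBs 6 of the 7 healthy *Apln* UMIs lay in 1 cell.

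Other features of the ECs moved with the phases. The cycling markers *Top2a*, *Mki67*, *Birc5* and *Cdk1* summed to 143.5 CPM in healthy ECs, 29.95 CPM at 2 weeks and 0 at 12 weeks. CM markers, which ECs lack, went from 653 CPM to 507 CPM and 170.5 CPM, and arterial markers from 399 CPM to 652 CPM and 1023 CPM. Endocardial markers were 0.332 and 3.08 times, lymphatic markers 0.0494 and 0.186 times, FB markers 0.179 and 1.45 times and erythroid markers 2.78 and 36.8 times the healthy sum at 2 and 12 weeks. The part of these in the ratios of the 8 genes was not tested. Among ECs without a leading set of arterial, venous, endocardial or lymphatic markers, the 2-week ratios were 1.70 for *Tek* (1.44 to 2.01), 1.34 for *Tie1*, 0.504 for *Apln* (0.384 to 0.657) and 1.51 for *Aplnr*, so that the directions were the same without those sets.

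Read against all genes, these differences were moderate. A gene was called when its level differed at least 2-fold between phases with at least 20 UMIs in both groups together. In ECs at 2 weeks 0 of the 7 of these genes with enough UMIs were called, where 10.1% of 10345 genes were. In ECs at 12 weeks 2 of 7 were called, against 17.8% of all genes tested. These were *Apln*, lower, and *Angptl2*, higher, at 17.1 CPM from 8 UMIs (ratio 2.26, 0.877 to 5.19). In FBs 2 of 6 were called at 2 weeks, *Angptl4* and *Aplnr*, both lower, with 1 and 0 UMIs at that time, against 22.7% of genes, and 0 of 6 at 12 weeks, against 13.8%. In mural cells 0 of 4 were called at 2 weeks (18% of genes) and 1 of 4, *Tek*, at 12 weeks (29.1%). The median ratio over the tested members was 1.012 in ECs at 2 weeks and 1.187 at 12 weeks, beside 1.012 and 1.072 over all genes tested.

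**Figure D3:**
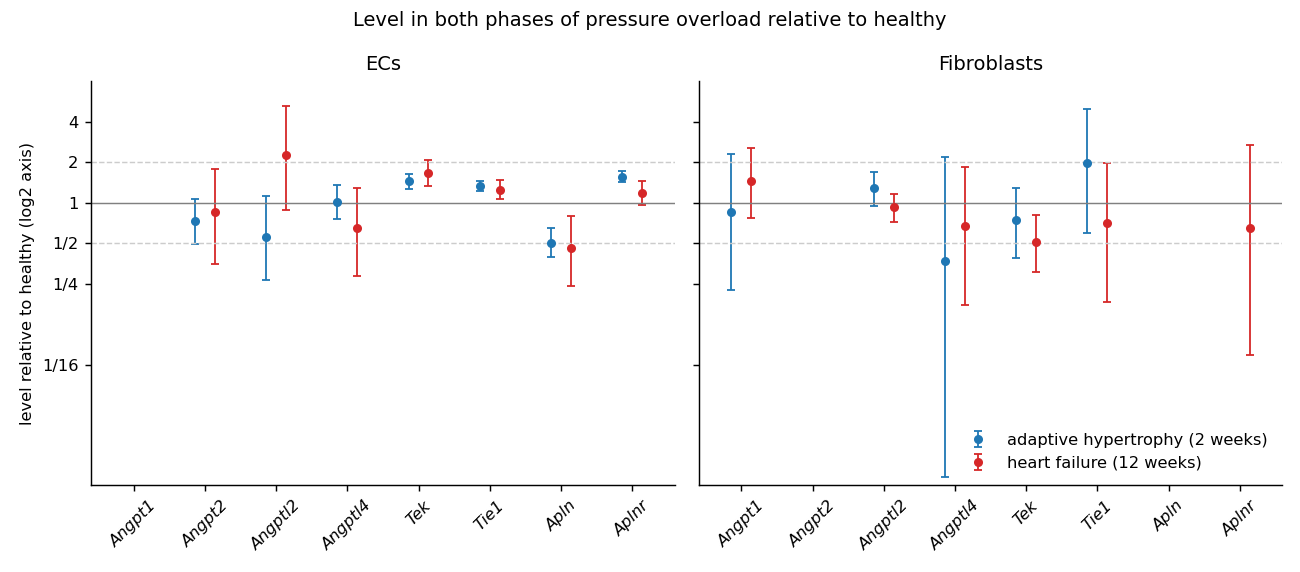
Ratios of levels at 2 and at 12 weeks to the healthy library for the 8 genes, in ECs and in FBs, on a log axis. Points are ratios of summed levels and bars are conditional binomial 95% intervals, and genes with fewer than 20 UMIs or with 0 UMIs at the later time are not drawn. In ECs *Tek*, *Tie1* and *Aplnr* lay above 1 at 2 weeks and *Apln* below 1 at both times.

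The receptors were spread unevenly over the kinds of EC. ECs were divided by marker sums into arterial-like, venous-like, endocardial-like and lymphatic-like cells, and the remaining ECs, of which there were 183, 64, 34, 26 and 778 in the healthy library. The sets overlapped in markers. Arterial markers summed to 1629 CPM in healthy endocardial-like ECs and 1349 CPM in arterial-like ECs. Capillary markers (such as *Car4* and *Gpihbp1*) summed to 3601 CPM in the remaining ECs and 2379 CPM in arterial-like ECs. *Tek* was 108 CPM in the remaining ECs, 184 CPM in arterial-like ECs (1.70 times, 1.35 to 2.13), 212 CPM in venous-like ECs (1.96 times, 1.42 to 2.66) and 284 CPM in endocardial-like ECs (2.62 times, 1.69 to 3.91). *Tie1* did not follow this order: it was 320.3 CPM in the remaining ECs and between 242 and 269 CPM in the other sets. *Aplnr* had its highest level in the remaining ECs, where *Tek* was lower than in the arterial-like, venous-like and endocardial-like sets. It was 256 CPM in the remaining ECs, 139 CPM in arterial-like ECs (0.544 times, 0.4305 to 0.682) and 175 CPM in venous-like ECs. Endocardial-like ECs had 0 *Aplnr* UMIs in the healthy library (upper bound of the ratio 0.152), where they had 27 *Tek* UMIs and 23 *Tie1* UMIs, and 0 again at 12 weeks in 18 cells with 20 *Tek* UMIs. At 2 weeks the endocardial-like set was 9 cells and had UMIs of only 1 of its 4 markers, so it is left unnamed there. Lymphatic-like ECs had 1 *Aplnr* UMI.

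*Apln* was likewise highest in the remaining ECs of the healthy library, at 77.9 CPM, against 38.7 CPM in arterial-like ECs (ratio 0.497, 0.3125 to 0.760), 8.15 CPM in venous-like ECs (2 UMIs) and 0 in endocardial-like ECs. In arterial-like ECs it was 12 CPM at 2 weeks (0.310 times the healthy level, 0.133 to 0.668) and 0 at 12 weeks. The ligands had another distribution. Endocardial-like ECs of the healthy library held 5 of the 7 *Angpt1* UMIs of all ECs, at 52.6 CPM (17.1 to 123) in 34 cells, and the 778 remaining ECs held 0. *Angptl2* was 52.6 CPM in endocardial-like ECs, against 4.28 CPM in the remaining ECs (ratio 12.3, 3.24 to 40.8, from 5 and 9 UMIs). At 12 weeks the 18 endocardial-like ECs had 1 UMI of *Angpt1* and 1 of *Angptl2*, each 0.404 times the healthy level (0.00855 to 3.61). FB markers summed to 452 CPM in healthy endocardial-like ECs and 311 CPM in the remaining ECs. The part of FB RNA in these levels was not tested. In arterial-like ECs the 12-week level of *Angptl2* was 62.7 CPM (7 UMIs) against 12.4 CPM (8 UMIs) in the healthy library, a ratio of 5.06 (1.56 to 15.96), whereas the remaining ECs had 0 *Angptl2* UMIs at 12 weeks. The EC total of *Angptl2* at 12 weeks thus came mostly from arterial-like cells. That set also differed in other markers between the 2 libraries. Its endocardial marker sum was 37.2 CPM at 0 weeks and 501 CPM at 12 weeks, the latter from 1 of the 4 markers. The part of this in the ratio of *Angptl2* was not tested.

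**Figure D4:**
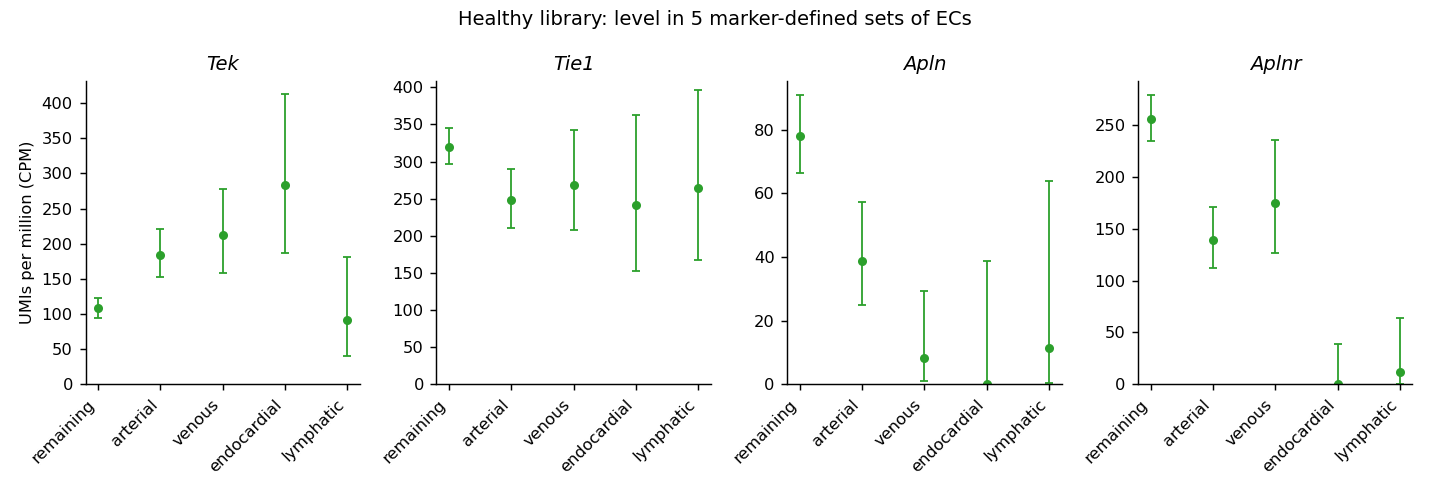
Levels (CPM) of *Tek*, *Tie1*, *Apln* and *Aplnr* in 5 marker-defined sets of ECs of the healthy library. Points are summed levels and bars are exact Poisson 95% intervals. *Tek* was lowest in the remaining and lymphatic-like ECs, whereas *Apln* and *Aplnr* were highest in the remaining ECs and *Aplnr* had 0 UMIs in endocardial-like ECs.

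*Apln* and *Aplnr* were read together under the same cell barcodes of ECs, and so were not exclusive as counted here. Called doublets were kept, and the part of barcodes that held 2 ECs was not tested. Before any correction for depth, 54 of 100 healthy ECs with an *Apln* UMI also had an *Aplnr* UMI (54.0%, 43.7 to 64.0), against 35.1% of the 985 ECs without *Apln*. At 2 weeks it was 39 of 70 (55.7%, 43.3 to 67.6) against 37.3%, and at 12 weeks 3 of 8 against 22.7%. ECs with *Apln* were deeper, however, with a median of 3644 UMIs against 2110 in the healthy library and 3049 against 1503 at 2 weeks. When each EC was thinned to 1000 UMIs, 7 of 51 *Apln*-positive healthy ECs had *Aplnr* (13.7%, 5.70 to 26.3), against 18.3% of the negative ones. At 2 weeks it was 4 of 28 (14.3%, 4.03 to 32.7) against 25.9%, and at 12 weeks 1 of 5. Each thinned interval held the share of the negative ECs, and these shares come from 1 random draw of UMIs. Averaged exactly over all thinnings to the same depth, the ratio of the shares was 1.12, 1.02 and 0.591 at 0, 2 and 12 weeks. Among ECs without a leading set of arterial, venous, endocardial or lymphatic markers it was 0.9105 at 0 weeks and 0.935 at 2 weeks. The lower shares of the single draw were thus not a stable order, and neither was the reverse. Compared instead within 5 groups of like depth, healthy ECs had *Aplnr* more often with *Apln* in each of the 5. The groups were small, with 6, 5, 15, 26 and 48 *Apln*-positive ECs from shallowest to deepest. Of these, 3, 2, 7, 10 and 32 had *Aplnr*, and in the fourth group the shares were 38.5% and 36.8%. The 2-week groups held 5, 6, 5, 13 and 41 *Apln*-positive ECs, and the differences within groups were not tested. At 2 weeks *Aplnr* was found less often with *Apln* in the shallowest group (0% against 24.7%) and in the fourth (30.8% against 42.3%). It was found more often with *Apln* in the other groups of that library. For a summary, the shares without *Apln* were weighted over the groups by the number of *Apln*-positive ECs in each. The shares were then 54.0% with and 46.9% without *Apln* at 0 weeks and 55.7% and 47.6% at 2 weeks.

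The level of *Aplnr*, which is less tied to the depth of a cell than a share, did not differ beyond counting error. In healthy ECs it was 209 CPM (171 to 253) with *Apln* and 212 CPM without (ratio 0.985, 0.792 to 1.22). At 2 weeks it was 314 CPM (245 to 396) with and 332 CPM without (ratio 0.946, 0.733 to 1.20). By *Apln* count, ECs with 0, 1 and at least 2 *Apln* UMIs had 212, 203 and 215 CPM of *Aplnr* in the healthy library. At 2 weeks these were 331.5, 329 and 276 CPM, the last from 17 cells (164 to 437). Over the 3 libraries together they were 275, 248 and 230.5 CPM, and the intervals overlapped from 1 count to the next. These pooled levels mix libraries in unlike parts and cannot be read as a trend with *Apln* count. The healthy library gave 39 of the 58 ECs with at least 2 *Apln* UMIs. The 2-week library, where *Aplnr* was higher, gave 1649 of the 2916 ECs with 0. Seen from the receptor and before thinning, 8.56% of all *Aplnr*-positive ECs had an *Apln* UMI, beside 5.75% of all ECs. In the 1 draw thinned to 1000 UMIs these shares were 2.12% and 3.26%.

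**Figure D5:**
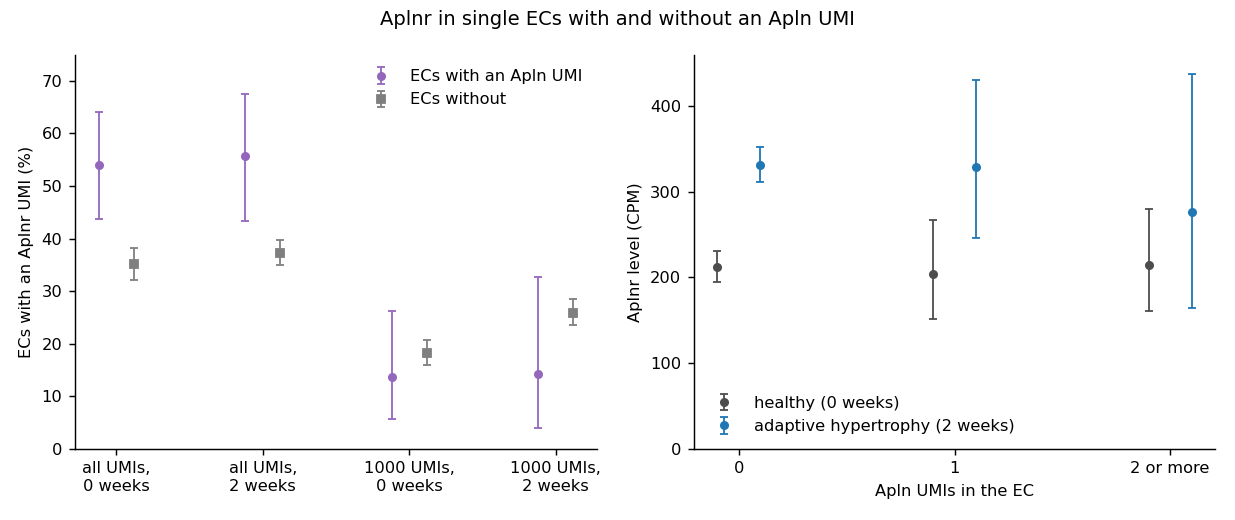
*Aplnr* in single ECs with and without *Apln*: share of cells with an *Aplnr* UMI before and after thinning to 1000 UMIs (percent, exact 95% intervals), and *Aplnr* level (CPM) in ECs with 0, 1 and 2 or more *Apln* UMIs. The shares before thinning were higher with *Apln* in the healthy and 2-week libraries, those after the 1 thinning drawn were lower, and the intervals of the levels overlapped.

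Between *Apln*-positive and other ECs the other members were compared in the same way. In the healthy library *Tek* was 73.7 CPM with *Apln* and 148 CPM without (ratio 0.497, 0.345 to 0.696), and at 2 weeks the ratio was 0.797 (0.553 to 1.12). *Angpt2* was 25.9 CPM with and 19.1 CPM without *Apln* at 0 weeks (ratio 1.36, 0.678 to 2.53), and 35.3 against 13.2 CPM at 2 weeks (ratio 2.68, 1.09 to 5.80). *Angptl2* had 0 UMIs in *Apln*-positive ECs of both libraries, with an upper bound of the ratio of 0.885 at 0 weeks and 4.15 at 2 weeks, the latter too high to show a difference. *Tie1* (0.941, 0.782 to 1.13) and *Angptl4* (1.09) showed none beyond counting error in the healthy library. Of the members tested in this split, 0 of 6 were at least 2-fold higher in the healthy library (3.13% of all genes) and 2 were at least 2-fold lower (8.56%), *Tek* and *Angptl2*. At 2 weeks 1 of 5, *Angpt2*, was higher (4.44%) and 0 were lower (15.4%). Cycling markers summed to 354 CPM with *Apln* and 104 CPM without in healthy ECs (ratio 3.41), and to 70.7 against 27.0 CPM at 2 weeks (ratio 2.62). Arterial markers were at 0.302 and 0.244 times and venous markers at 0.197 and 0.229 times the sum of the negative ECs. Mural markers summed to 242.9 CPM with *Apln* and 115.1 CPM without in healthy ECs (ratio 2.11, 1.697 to 2.61). At 2 weeks the mural ratio was 0.646 (0.2553 to 1.364). Blood markers were at 1.422 times (1.048 to 1.903) at 0 weeks and 0.382 times (0.04539 to 1.431) at 2 weeks. FB markers were at 0.7068 and 0.3997 times at 0 and 2 weeks. The part of RNA from other classes in this split was not tested.

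The genes whose presence in single ECs was most like that of *Apln* were ranked by the smaller of the ratios of levels, with and without *Apln*, at 0 and 2 weeks, over 3128 genes with enough UMIs. The first was *Pgf*, the placental growth factor, a ligand of VEGF receptor 1. Its level was 275 CPM with *Apln* and 30.7 CPM without in the healthy library (ratio 8.97), and 132.5 against 12.2 CPM at 2 weeks. Next came *2810417H13Rik*, which encodes a PCNA-associated factor of DNA replication (55.8 against 10.1 CPM), *Mest* (430.2 against 108 CPM), *Rarres1*, *Lxn*, *Stmn1*, which encodes a microtubule regulator of dividing cells (382 against 155 CPM), *Golt1b* and *Ift122*. For *Aplnr*, over 8068 genes, the largest ratio was that of *Rnf165*, from 11 and 12 UMIs, and those of *Klk14*, *Samd5*, *1700037H04Rik*, *Gm29007*, *Flrt2*, *Cmbl* and *2810006K23Rik* followed, down to 1.97. With at least 20 UMIs asked for, 5 of the 8 genes like *Apln* and 3 of the 8 like *Aplnr* were kept.

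For the other members the first 3 genes were given by the same rule, in the class of the highest level. In ECs *Sost*, *Kank1* and *Kcnn4* went with *Tek*, *Plekhf1*, *Abcc9* and *Setdb2* with *Tie1*, and *Adh1*, *Rab40c* and *Gypc* with *Angptl4*. These rested on 10 to 24 UMIs in the positive ECs of a library. None of them was kept when at least 20 UMIs were asked for, and *Pthlh*, *Ube2c* and *Mest* then came first. At 12 weeks the genes named for *Tie1* and *Angptl4* had 0 UMIs in the positive ECs. In FBs *Ccl2*, the chemokine that draws monocytes, *Postn*, which encodes the matrix protein periostin, and *Fndc1* went with *Angptl2*, at smaller ratios of 1.84, 1.61 and 1.54. *Apoe*, *Dpt* and *Ccdc80* went with *Angpt1*, among only 31 genes with enough UMIs, since 4 FBs at 2 weeks had *Angpt1*. In mural cells *Edn1*, the vasoconstrictor endothelin 1, was first beside *Angpt2* (1.54), ahead of *Tmsb10* and *Ddit4*. For *Tek* in FBs, a ranking added after the values of *Tek* there were seen, the first genes were *Fabp4*, *Heg1*, *Pcsk6*, *Cd200* and *Nrp1*. *Fabp4*, a fatty acid carrier abundant in capillary ECs, was 614 against 246 CPM in healthy FBs with and without *Tek*, and the EC marker sum was 316 against 88.6 CPM.

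A list of 27 other genes of these pathways was counted in the same way. In ECs 0 of the 17 with enough UMIs were called at 2 weeks (10.1% of all genes) and 1 of 16 at 12 weeks (17.8%). That gene was *Plvap*, which encodes the protein of endothelial diaphragms, at 28.0 CPM at 0 and 81.0 CPM at 12 weeks (2.89 times, 1.92 to 4.27). The difference was not seen in the remaining ECs, without arterial, venous, endocardial or lymphatic markers in the lead. There *Plvap* was 4.28 CPM (9 UMIs) at 0 and 3.56 CPM (1 UMI) at 12 weeks (0.832 times, 0.0190 to 6.00). In FBs 6 of 17 were called at 2 weeks, against 22.7% of all genes. Higher were *Itga5*, an integrin subunit that can bind angiopoietins (2.27 times), *Ppard*, a fatty acid–sensing nuclear receptor (3.17 times), and *Furin*, a protease that can process proapelin (2.26 times). Lower were *Angptl1* (0.408 times), *Angptl7* (221 to 75.6 CPM) and *Lpl*, the lipase that ANGPTL4 inhibits (377 to 131 CPM, 0.347 times, 0.245 to 0.478). At 12 weeks 1 of 17 was called in FBs (13.8% of all genes), *Ptprb*, whose product VE-PTP dephosphorylates Tie2, at 33.7 and 69.6 CPM (2.07 times, 1.45 to 2.91). The median ratio of the list was 1.115 and 0.947 in ECs and 1.141 and 0.858 in FBs at 2 and 12 weeks. *Apela*, the gene for the other peptide of the apelin receptor, and *Angpt4*, a further angiopoietin gene, had 0 UMIs in ECs at 0 and 2 weeks.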

How the data were processed

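The authors deposited raw UMI counts per gene and cell, without normalization, for 1 Chromium 3' library per phase. Cell Ranger 2.0.0 and mm10 are named in the submitters' processing notes. Cells with at least 200 genes were gated to a class when its marker sum was at least 3 UMIs and at least 2 times every other sum. Levels were given exact Poisson intervals, ratios conditional binomial intervals and shares exact Clopper-Pearson intervals, each at 95%, and a count of 0 the limit of 3 counts. Cells are not replicates and phase has 1 library, so no p-values were computed. The members and gene lists were chosen with earlier results of these data known. Named genes were the 8 members, pathway genes called 2-fold with at least 20 UMIs in ECs or FBs, and the 8 genes most like *Apln* and *Aplnr* and 3 most like each other member, by the smaller ratio at 0 and 2 weeks with at least 10 UMIs, leaving out mitochondrial, ribosomal and haemoglobin genes. Scrublet (scanpy 1.11.5, anndata 0.12.19) called 38, 2 and 1 doublets, which were kept. Such low calls at 2 and 12 weeks do not show that doublets were few. Alternatives were other gates, filters, depths, doublet removal and means per cell. Those with remaining ECs alone, FBs with no EC marker UMI, groups of like depth and the mean over thinnings were added after the data were seen. Python 3.11.15, numpy 2.4.6, scipy 1.17.1, pandas 2.3.3 and matplotlib 3.10.9 were used, and scripts were tested on simulated data. Coordinates are those of the GENCODE annotation of GRCm38, matched by Ensembl identifier, and promoters those of RefSeq on GRCm38.p6. Protein sequences were not used here. Some genes of the pathway list are not reported here.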

Additional observations from a re-analysis of the deposited data

Results flagged for a closer look

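*Tek* differed in direction between ECs and FBs at 12 weeks, with a ratio to the healthy library of 1.67 in ECs and 0.514 in FBs. It was flagged because the 2 classes of the same libraries moved opposite ways. The difference was not tested, since each phase was 1 library, and the part of endothelial RNA in FBs was not tested either. In FBs with no EC marker UMI the ratio was 0.720, with an interval of 0.395 to 1.22.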

How the results depend on the processing

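Of 257 alternatives over 43 results, 222 moved the value by less than its counting interval, 35 moved it further and 0 reversed a called direction. Among ratios not called, those of *Angpt1* in FBs at both times and of *Angptl4* in ECs at 2 weeks changed side of 1. The called 12-week ratio of *Apln* in ECs fell short of 2-fold in the remaining ECs (0.548) and with the 5-fold marker gate (0.509). Among the results that answer a comparison, 106 of 115 alternatives stayed within that interval. Averaging counts per 10000 UMIs over single cells gave a 2-week ratio of 1.45 for *Tie1* in ECs, and the remaining ECs alone gave 1.70 for *Tek*. The ratio of *Aplnr* shares with and without *Apln* was 1.54 at 0 weeks and 1.49 at 2 weeks without thinning. At 2 weeks it was 1.58 with thinning to 1500 UMIs and 1.72 when the leading marker sum had to be at least 5 times the others. Main values, from 1 draw, were 0.751 and 0.551, and the mean over all thinnings gave 1.12 and 1.02. In the remaining ECs that mean gave 0.9105 and 0.935. The cause was not tested. At 1.5-fold, pathway genes called were 2 of 17 and 3 of 16 in ECs at 2 and 12 weeks (26.7% and 39% of all genes), and 9 and 4 of 17 in FBs (44.5% and 32%). No paired analysis was possible because each phase had 1 library. Depth limits most of the 12-week values, with 13 *Apln* UMIs in ECs, and the FB and mural values at 2 weeks.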
